A study of Mus musculus with 12 samples.

Results

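Most of the genes Erich5, Elfn1, Pkn3, Ofcc1, Veph1, Ankfn1, R3hdml, Chst13, Slc52a3 and Msrb3 have been studied little, or not chiefly in hair cells, which sense sound and head movement. These 10 genes, of 29641 listed in the series, were chosen by symbol for large falls in the cochlea of Gfi1 mutant mice. Their cochlear values are therefore given as a description with no test, and the question asked of the data was whether each gene fell, held its level or rose in the mutant vestibule. Ribosomes were pulled down through an HA tag from newborn mice at postnatal day 0 to 1. All animals carried RiboTagHA/HA, an allele of a ribosomal protein that gains the tag wherever Cre is active, and Cre came from the Gfi1 locus. Heterozygotes were Gfi1Cre/+;RiboTagHA/HA, and mutants were Gfi1Cre/Cre;RiboTagHA/HA, so that the mutants lacked an unmodified Gfi1 allele and also carried more Cre; these differences cannot be told apart. Each genotype had 3 cochlear and 3 vestibular libraries, described by the series as independent biological replicates, 12 in all.

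GFI1 is a zinc finger repressor of transcription that hair cells need to mature and survive. The cochlea holds the hair cells of hearing, and the vestibule those of balance, and the organs share most of the genes that build the hair bundle while differing in many others. RiboTag pull-down reads transcripts on ribosomes of the tagged cells, with a carry-over of RNA from other cells. A lower value in such a bulk sample can come from fewer cells of a type or from less RNA per cell, and these cannot be told apart here.

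Values are CPM, the reads of a gene scaled to the size of its library. Cochlear libraries held 7531518 to 9363796 reads, so that 1 read stood for 0.107 to 0.133 CPM, and vestibular libraries held 18951026 to 29370267 reads, with 0.0340 to 0.0528 CPM for each. Gfi1 itself stood at 165, 106 and 126 CPM in the cochlear heterozygotes and at 75.1, 64.3 and 69.1 CPM in the cochlear mutants, in replicate order. In the vestibule it stood at 534, 449.8 and 483 CPM in heterozygotes and at 236, 198 and 208 CPM in mutants, so the genotypes did not overlap in either organ. All 10 defining hair cell markers examined were found in both organs. Their summed level was 5734 to 6731 CPM in cochlear heterozygotes against 3648 to 4355 CPM in cochlear mutants. In the vestibule it was 9303 to 10545 CPM against 10562 to 11251 CPM. Much of that vestibular sum came from Otof, with means of 4770 CPM in heterozygotes and 4582 CPM in mutants, and Myo6, with 1895 and 2677 CPM. Both replicate 1 libraries of the vestibule stood apart from the other vestibular libraries, with 0.684% and 0.729% of reads outside the listed genes against 0.119% to 0.127%. Both replicate 3 libraries of the cochlea had less RNA from mitochondrial genes than the others, 33207 and 27152 CPM against 58562 to 78544 CPM, and without them all 10 genes kept their direction. In every same-numbered pair of both organs the mutant had less of it, with 7212, 8626 and 2733 CPM in vestibular heterozygotes and 2368, 5156 and 1282 CPM in vestibular mutants, and its part in the results was not tested. Cochlear and vestibular libraries were made with different kits, so levels are not compared between the organs.

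In the mutant cochlea all 10 genes lay lower than in heterozygotes, with every mutant library below every heterozygous library, as the way they were chosen required. Mutants lay fully below heterozygotes for 7.77% of the 17985 genes tested in the cochlea, and 2.52% were called lower. The falls ran from 2.51-fold for Slc52a3 to 44.4-fold for Chst13 as ratios of mean CPM. On the log2(CPM + 1) scale, used for all differences below and compressing those of low genes, they ran from -1.31 (SE 0.12) for Slc52a3 to -3.87 (SE 0.25) for Erich5. Slc52a3 was 148th in size among all cochlear falls, and 138 genes other than the 10 had a change at least as large. The size depended on the fit for low genes, from -2.46 to -5.46 for Erich5, -1.60 to -5.47 for Chst13, -1.74 to -4.15 for Ofcc1, -1.99 to -4.12 for R3hdml, -2.54 to -4.28 for Elfn1 and -2.45 to -3.70 for Pkn3. Erich5 had the lowest value of the 10 in the fits run except with a pseudocount of 4, where Elfn1 did, and in DESeq2, where Chst13 did. The gene with the next smaller fall after Slc52a3 was Tmem91, at -1.31 as well.

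**Figure D1:**
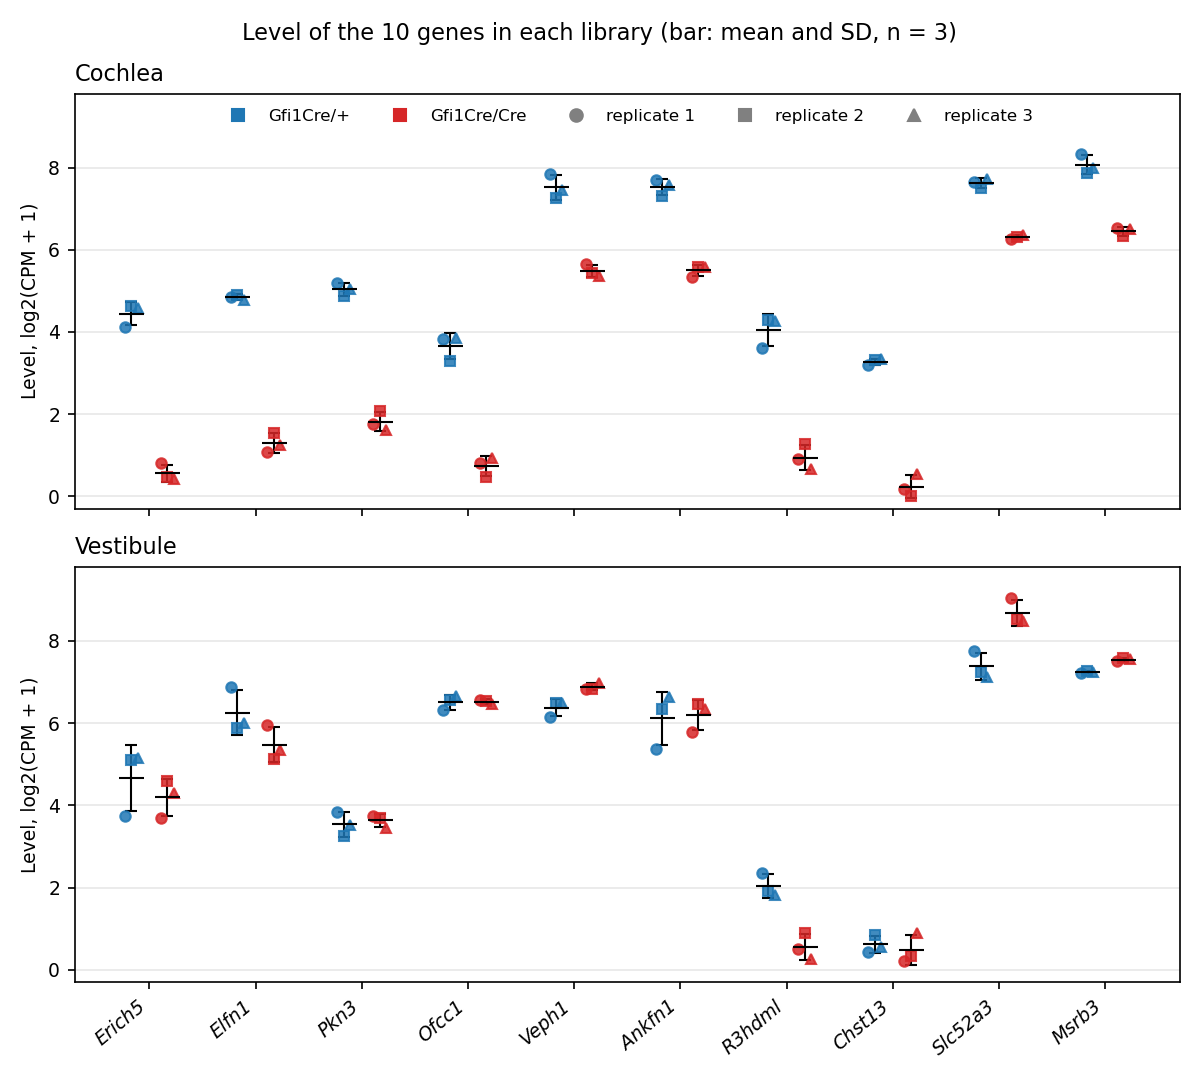
Level of each of the 10 genes in every library, on the log2(CPM + 1) scale, in the cochlea (top) and the vestibule (bottom); colours are genotypes, marker shapes are replicate numbers, and bars are the mean and SD over 3 libraries. In the cochlea the mutants lie below the heterozygotes for all 10 genes, whereas in the vestibule they lie fully below for R3hdml alone and fully above for Veph1, Slc52a3 and Msrb3.

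Elfn1, Pkn3 and Slc52a3 encode proteins of the cell surface or of signalling. Elfn1, a postsynaptic transmembrane protein that binds metabotropic glutamate receptors across the synapse, stood at 28.1, 28.9 and 26.4 CPM in heterozygotes and at 1.12, 1.94 and 1.39 CPM in mutants. Pkn3, a serine/threonine protein kinase, stood at 35.6, 28.4 and 31.9 CPM in heterozygotes and at 2.37, 3.23 and 2.08 CPM in mutants. Both genes were left with 25 reads or fewer in any mutant library, and their log2 changes were -3.55 (SE 0.22) and -3.22 (SE 0.22). Slc52a3, a transporter that brings the vitamin riboflavin into cells, stood at 200.2, 180.3 and 211 CPM in heterozygotes and at 75.7, 78.8 and 81.1 CPM in mutants. It kept the highest share of its level of the 10 genes, and its mutant libraries held up to 700 reads.

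Among the enzymes, Chst13, a sulfotransferase acting on chondroitin chains of the extracellular matrix, stood at 8.13, 8.90 and 9.08 CPM in heterozygotes and at 0.125, 0 and 0.463 CPM in mutants. Mutant replicate 2 held no read of Chst13, which allows a level of up to 0.387 CPM at 3 reads, a limit that covers counting error only. Chst13 was thus near the limit of detection in mutants, with at most 4 reads in a library and a change of -3.04 (SE 0.26). Msrb3, a methionine sulfoxide reductase that repairs oxidised proteins and is known from inherited human deafness, stood at 321, 234 and 254 CPM in heterozygotes and at 90.9, 79.2 and 89.5 CPM in mutants. Its change was -1.62 (SE 0.14), with no mutant library above 90.9 CPM.

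Genes for proteins built from interaction domains fell by about the same amount as each other. Veph1, a pleckstrin homology domain protein related to the fly protein Melted, stood at 227, 151 and 175 CPM in heterozygotes and at 49.2, 42.5 and 40.1 CPM in mutants. Ankfn1, the ankyrin repeat and fibronectin domain counterpart of the fly protein Wide awake, stood at 206, 158 and 190.1 CPM in heterozygotes and at 39.5, 46.6 and 46.8 CPM in mutants. Their log2 changes were both -2.03, with SE 0.16 and 0.14.

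The remaining genes encode proteins of little known function, and all were nearly lost. Erich5, which encodes a glutamate-rich protein, stood at 16.4, 23.6 and 22.9 CPM in heterozygotes and at 0.750, 0.387 and 0.347 CPM in mutants. Ofcc1, named as a candidate for orofacial clefts, stood at 13.2, 8.76 and 13.6 CPM in heterozygotes and at 0.750, 0.387 and 0.927 CPM in mutants. R3hdml, a predicted secreted protein with a CAP domain, stood at 11.2, 18.6 and 18.3 CPM in heterozygotes and at 0.875, 1.42 and 0.579 CPM in mutants. Erich5, Ofcc1 and Chst13 reached 1 CPM only in the heterozygotes and R3hdml also in 1 mutant, so that they entered the cochlear comparison through the group where they were high. Ofcc1 and R3hdml changed by -2.92 (SE 0.27) and -3.11 (SE 0.28).

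Most of the defining hair cell markers also fell in the mutant cochlea. Of 10 markers 7 were called lower and none higher (limma, Benjamini-Hochberg adjusted), with a median log2 change of -0.81 beside 0.05 over all genes tested. The change of Cdh23, a cadherin of the tip links, was -1.77 (SE 0.19), the largest of these markers, and the difference of Pou4f3, a hair cell transcription factor, was -0.17 (SE 0.13), the smallest. Neuron markers moved the other way, with 7 of 8 called higher, against a background of 1.90% called higher, and their summed level was 1002 to 1134 CPM in heterozygotes against 1950 to 2095 CPM in mutants. Of the granulocyte markers 4 of 5 tested were called lower (30.1 to 57.5 CPM summed against 4.13 to 8.998 CPM), and of the mast cell markers 2 of 6. Of the macrophage markers 2 of 10 were called higher (2131 to 2692 CPM summed against 2623 to 3213 CPM), and of the supporting cell markers 1 of 10 was called lower. The part of these cell types in the falls of the 10 genes was not tested.

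Promoter sequences were looked up as a description. The shared cochlear fall was the rule that chose the 10 genes, so it is no ground to expect a shared promoter element. The 250 bases before the start of transcription are printed for R3hdml, which lay lower in all mutants of both organs, and for Veph1, which lay higher in all vestibular mutants (RefSeq, GRCm38.p6, 5′ to 3′ on the strand of the gene; capitals mark a match to a motif searched). R3hdml lies at chr2:163492068-163492317 on the plus strand and Veph1 at chr3:66296838-66297087 on the minus strand.
R3hdml: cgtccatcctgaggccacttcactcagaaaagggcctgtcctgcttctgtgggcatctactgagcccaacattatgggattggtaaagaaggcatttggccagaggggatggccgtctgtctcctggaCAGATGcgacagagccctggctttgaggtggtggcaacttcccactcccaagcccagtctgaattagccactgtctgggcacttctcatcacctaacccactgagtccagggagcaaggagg
Veph1: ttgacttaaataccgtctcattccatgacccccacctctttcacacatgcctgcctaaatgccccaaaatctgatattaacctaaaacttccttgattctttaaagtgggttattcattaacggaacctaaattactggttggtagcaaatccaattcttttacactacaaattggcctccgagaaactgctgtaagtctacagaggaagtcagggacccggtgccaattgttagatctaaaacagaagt
Base composition differed between them, with 56.0% G and C in R3hdml and 40.4% in Veph1, against a median of 52.4% over 32817 promoter windows. Of the 10 genes 7 had a promoter in the RefSeq table, and Erich5, Ankfn1 and Slc52a3 did not. For Pkn3, Ofcc1 and Msrb3 the window lies partly or wholly inside the gene as GENCODE M21 annotates it. Both strands of these 7 windows were searched for CAGCTG and CAGATG, E-boxes of the kind bound by bHLH factors, for AAATCA, which holds the AATC core bound by GFI1, and for TTAATTA, an AT-rich homeodomain element. Only R3hdml held a match, a CAGATG 122 to 117 bases before the start, and these motifs occur in 13.0%, 14.5%, 12.4% and 2.78% of all windows of that length. That match overlapped no other motif, and the absence of a match says only that those letters are not in these windows.

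In the mutant vestibule the 10 genes parted. Slc52a3 rose (limma, Benjamini-Hochberg adjusted p = 0.0139) and R3hdml was called lower (0.0270), although R3hdml entered the test only through the heterozygotes and was not called without the filter on low values (0.0573). Of the others 7 genes did not pass the test, and Chst13 was under the filter. Called lower were 1.09% of the 15595 genes tested in the vestibule and called higher 2.41%, so that each direction held 1 of the 9 tested genes. Libraries of the same replicate number varied together, although the labels do not state what a number marks. With the replicate number as a block in the fit 3 of the 9 were called lower (R3hdml, Elfn1 and Erich5) and 3 higher (Slc52a3, Veph1 and Msrb3). Under that block 12.8% of all genes were called lower and 10.5% higher. Pkn3, Ofcc1 and Ankfn1 passed in neither fit.

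**Figure D2:**
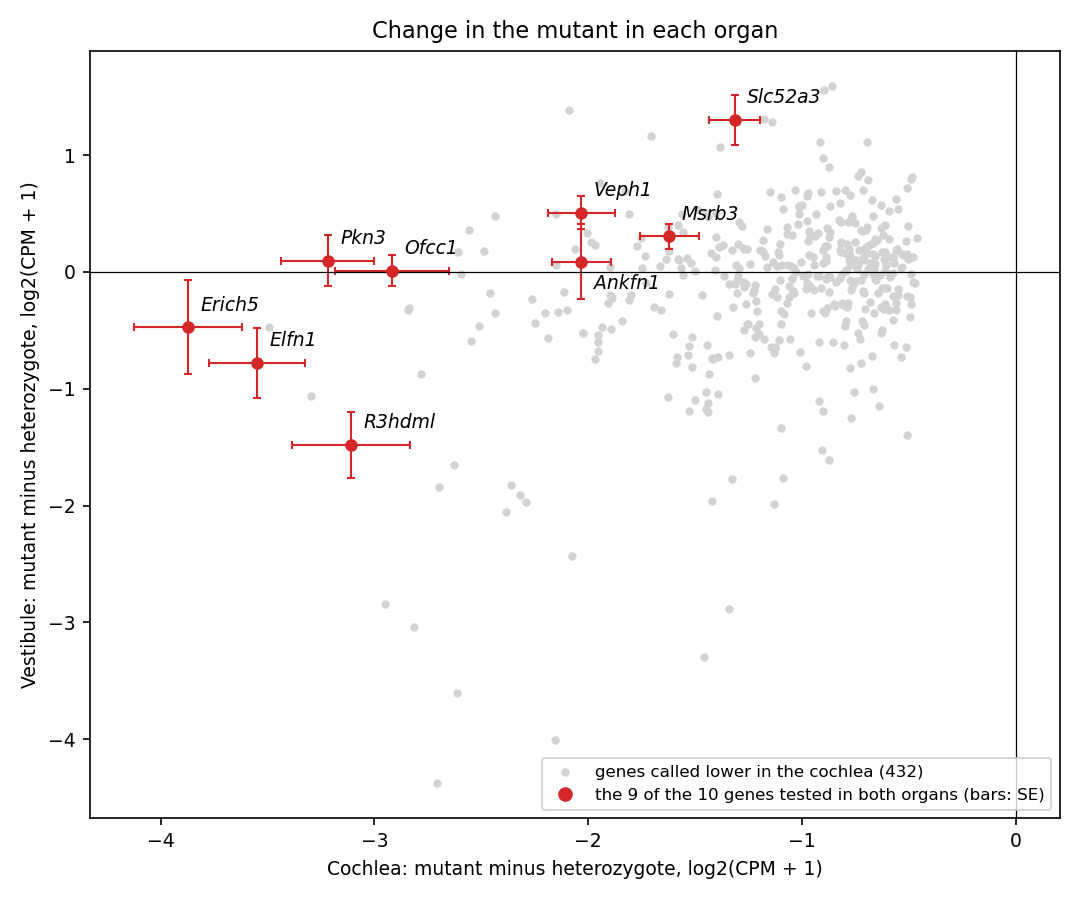
Mutant minus heterozygote difference on the log2(CPM + 1) scale in the cochlea (horizontal axis) and in the vestibule (vertical axis), with SE bars, for the 9 of the 10 genes tested in both organs (red) and for genes called lower in the cochlea and tested in the vestibule (grey, those 9 and 423 others). R3hdml lies lowest of the red points at -1.48 in the vestibule and Slc52a3 highest at 1.30, with Pkn3, Ofcc1 and Ankfn1 near 0.

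Slc52a3, the riboflavin transporter, rose in the vestibule by about as much as it fell in the cochlea. Its level was 216, 150.3 and 139 CPM in heterozygotes and 523, 367 and 355 CPM in mutants, a change of 1.30 (SE 0.21). All 3 mutant libraries lay above all 3 heterozygotes, as they did for 10.7% of genes tested in the vestibule, and the differences within same-numbered libraries were 1.28, 1.28 and 1.34. It no longer passed when heterozygote replicate 2, heterozygote replicate 3 or mutant replicate 2 was left out, with adjusted p of 0.0501 to 0.0798 in limma, nor without both replicate 2 (0.245) or both replicate 3 libraries (0.144). The change stayed between 1.12 and 1.49 in the fits run. Without both replicate 1 libraries it was 1.31 (limma, Benjamini-Hochberg adjusted p = 0.000520).

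Veph1 and Msrb3 also lay higher in every mutant library of the vestibule, by less. Veph1 stood at 69.6, 89.0 and 89.4 CPM in heterozygotes and at 113, 113 and 125 CPM in mutants, a difference of 0.51 (SE 0.14; limma, Benjamini-Hochberg adjusted p = 0.104). Msrb3 stood at 147, 153 and 151 CPM in heterozygotes and at 181, 190 and 187 CPM in mutants, a difference of 0.30 (SE 0.10; limma, Benjamini-Hochberg adjusted p = 0.195). The 3 differences within same-numbered libraries were 0.30, 0.31 and 0.31 for Msrb3 and 0.70, 0.34 and 0.48 for Veph1. With the replicate block Veph1 (limma, Benjamini-Hochberg adjusted p = 0.000991) and Msrb3 (0.00916) were called higher. DESeq2 on whole reads called them too (Benjamini-Hochberg adjusted p = 0.00890 and 0.0470), in a test that called 5.20% of genes higher. Without both replicate 1 libraries the differences were 0.41 for Veph1 and 0.31 for Msrb3 (limma, Benjamini-Hochberg adjusted p = 0.0647 and 0.0974). Without both libraries of replicate 2 or of replicate 3 the adjusted p was 0.592 or 0.461 for Veph1 and 0.847 or 0.649 for Msrb3.

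R3hdml, the CAP domain gene, was low in the vestibule and lower still in mutants. It stood at 4.15, 2.77 and 2.55 CPM in heterozygotes and at 0.422, 0.849 and 0.205 CPM in mutants, a change of -1.48 (SE 0.28) and a ratio of 6.42. Mutants lay fully below heterozygotes, as for 11.6% of genes tested in the vestibule. R3hdml reached 1 CPM only in the heterozygotes, and its mutant libraries held at most 20 reads. The call was lost when any single library was left out (limma, Benjamini-Hochberg adjusted p of 0.0555 to 0.110) and without both libraries of replicate 1 (0.0643), replicate 2 (0.210) or replicate 3 (0.233). Its change ran from -0.67 to -2.65 over the fits.

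Elfn1 and Erich5 were lower in all 3 mutants when set against the heterozygote of the same number, although the genotypes overlapped. The share of all genes lower in all 3 such pairs is not given here, and the pairing was inferred from these same values. With the replicate block 12.8% of all genes were called lower. Elfn1 stood at 116, 58.0 and 62.8 CPM in heterozygotes and at 60.5, 34.1 and 39.7 CPM in mutants, a difference of -0.78 (SE 0.30; limma, Benjamini-Hochberg adjusted p = 0.253). Replicate 1 was the highest library of Elfn1 in both genotypes. With the replicate block the adjusted p was 5.40e-05, and without both replicate 1 libraries, where 2.12% of genes were called lower, the difference was -0.70 (SE 0.13; limma, Benjamini-Hochberg adjusted p = 0.0259). Without both replicate 2 or both replicate 3 libraries it was -0.79 and -0.84, with adjusted p of 0.725 and 0.574 in limma.

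Erich5, first in size of cochlear change on the log2 scale, stood at 12.3, 33.6 and 34.7 CPM in vestibular heterozygotes and at 12.0, 23.2 and 18.6 CPM in mutants. The difference was -0.47 (SE 0.40; limma, Benjamini-Hochberg adjusted p = 0.642), or 0.0439 for the adjusted p with the block. Both replicate 1 libraries were the lowest of their genotype, and the difference within them was -0.04, against -0.52 and -0.87 in replicates 2 and 3. Without both replicate 1 libraries the difference was -0.69 (SE 0.16; limma, Benjamini-Hochberg adjusted p = 0.0547), and without both of replicate 2 or of replicate 3 it was -0.45 and -0.28 (0.965 and 0.939). Every vestibular mutant kept 12.0 CPM of Erich5 or more, with 227 reads or more.

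**Figure D3:**
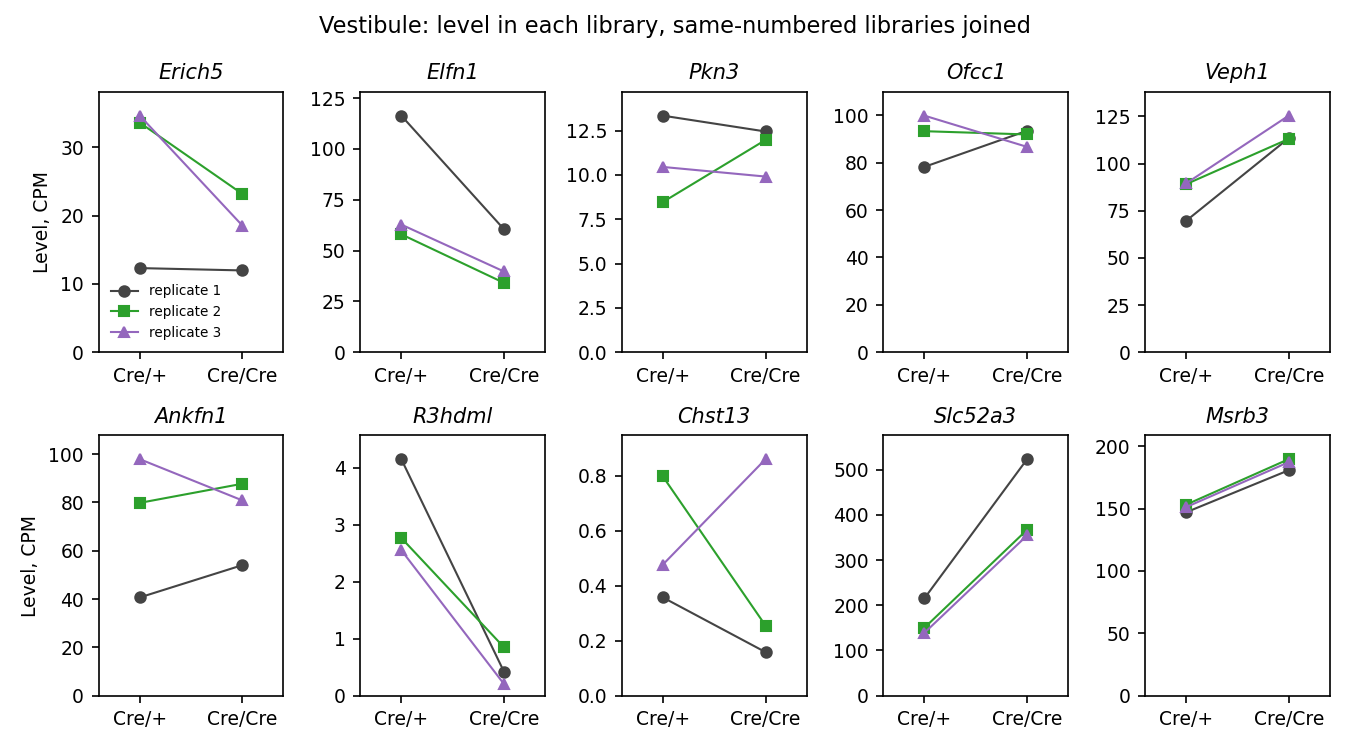
Level in CPM of each of the 10 genes in the 6 vestibular libraries, with heterozygote (Cre/+) and mutant (Cre/Cre) libraries of the same replicate number joined by a line; each panel has its own vertical axis from 0. The 3 lines descend for Erich5, Elfn1 and R3hdml, ascend for Veph1, Slc52a3 and Msrb3, and run in both directions for Pkn3, Ofcc1, Ankfn1 and Chst13. The share of all genes with all 3 lines in the same direction is not given here.

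Pkn3, Ofcc1 and Ankfn1 had vestibular differences near 0. Ofcc1 stood at 78.3, 93.4 and 99.9 CPM in heterozygotes and at 93.6, 92.0 and 86.7 CPM in mutants. Its difference was 0.01, with a 95% confidence interval of -0.29 to 0.31. Pkn3 stood at 13.3, 8.47 and 10.5 CPM in heterozygotes and at 12.5, 12.0 and 9.91 CPM in mutants, a difference of 0.10 with an interval of -0.40 to 0.59.

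Ankfn1 was the least certain of these. It stood at 40.7, 79.8 and 97.9 CPM in heterozygotes and at 54.0, 87.7 and 80.8 CPM in mutants, with replicate 1 the lowest in both genotypes. Its difference was 0.09 with an interval of -0.65 to 0.83, or -0.16 to 0.33 with the block. The limma Benjamini-Hochberg adjusted p values of the 3 genes were 0.895 for Pkn3, 0.984 for Ofcc1 and 0.942 for Ankfn1.

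Chst13 did not reach 1 CPM in any vestibular library. Its levels were 0.357, 0.797 and 0.477 CPM in heterozygotes and 0.158, 0.255 and 0.860 CPM in mutants, on at most 21 reads, and the genotypes overlapped. In the fit without a filter its difference was -0.14 (SE 0.21; limma, Benjamini-Hochberg adjusted p = 0.867), so that no change was detectable at this depth. No test was made of the difference between organs for any of the 10 genes, since the cochlear changes had chosen them.

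Of the 10 hair cell markers none was called in either direction in the vestibule (limma, without the block), and their median difference was 0.18, beside -0.06 over all genes tested. Pcdh15, the other cadherin of the tip link, had the largest difference of these markers, 0.85 (SE 0.21; limma, Benjamini-Hochberg adjusted p = 0.0773). Called lower were 4 of 6 mast cell markers, 6 of 6 granulocyte markers, 2 of 8 mesenchyme markers and 1 of 6 markers of Schwann and satellite glia, and called higher were 4 of 8 neuron markers. The summed level of the mast cell markers was 1699 to 1956 CPM in heterozygotes against 255 to 479 CPM in mutants. That of the mesenchyme markers was 1864 to 2403 CPM against 1003 to 1363 CPM, and that of the neuron markers 1310 to 1510 CPM against 2279 to 2374 CPM. The part of these cell types in the vestibular values of the 10 genes was not tested.

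Other genes that fell in the cochlea also mostly failed to pass in the vestibule. Of 443 other genes called lower in the cochlea 423 were tested in the vestibule, where 42 (9.93%) were called lower, 19 (4.49%) higher and 362 neither. Among the 40 of these that had changed by at least 4-fold in the cochlea, 15 (37.5%) were called lower in the vestibule and 1 (2.50%) higher. These 40 were not separated by cell type, and its part in these shares was not tested. Granulocyte markers were called lower in both organs, 4 of 5 tested in the cochlea and 6 of 6 in the vestibule. Of the 10 genes described here 7 had changed by at least 4-fold in the cochlea and were tested in the vestibule. R3hdml alone of them was called lower without the block. It had entered that test only through the heterozygotes, and its call was lost without the filter on low values (limma, Benjamini-Hochberg adjusted p = 0.0573).

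Set against exon length, the 10 genes spanned a wide range of levels in heterozygotes. In the cochlea Slc52a3 stood at 71.2 CPM per kb of merged exons and Msrb3 at 66.7, and their libraries overlapped. Ankfn1 (29.9 CPM per kb) and Veph1 (26.0) followed and overlapped each other, then R3hdml (14.6), which overlapped neither neighbour. Erich5 (8.79 CPM per kb), Pkn3 (7.51) and Elfn1 (6.66) overlapped in turn, and Chst13 (5.26) and Ofcc1 (3.31) came last without overlap.

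The order within vestibular heterozygotes is given apart, since the library kits differ between the organs. Slc52a3 stood at 60.8 CPM per kb and Msrb3 at 37.2 CPM per kb, without overlap. Ofcc1 was the third at 25.3 CPM per kb and overlapped Elfn1 at 18.9, which in turn overlapped Ankfn1. Ankfn1 (11.8), Veph1 (11.7) and Erich5 (11.3) could not be separated from each other, and R3hdml (2.89) and Pkn3 (2.53) overlapped as well. Chst13 was lowest at 0.329 CPM per kb.

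By GENCODE M21 on GRCm38, Pkn3, R3hdml and Slc52a3 lie on chromosome 2 and the other 7 genes each on a chromosome of its own. All are annotated as protein-coding. Elfn1 lies on chromosome 5 (139907943 to 139974722), as does the modified Gfi1 locus (107716657 to 107726036). The part of this shared chromosome in the values of Elfn1 was not tested. Exon bases shared with another annotated gene amounted to 1.86% in Pkn3, with Zdhhc12 on the other strand, and 1.30% in Veph1, with none in the other 8. Veph1 (chromosome 3, 66053558 to 66296837), Ankfn1 (chromosome 11, 89390223 to 89777653) and Ofcc1 (chromosome 13, 40001882 to 40361450) are spread over long introns. Slc52a3 (chromosome 2, 151996511 to 152009258) and R3hdml (chromosome 2, 163492318 to 163502612) are compact. Whether counting used strand is not stated in the labels or files.

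Relatives by protein family or pathway were examined next. Of 22 relatives of Elfn1, Pkn3, R3hdml, Chst13, Slc52a3 and Msrb3, 20 were tested in the cochlea, where 2 were called lower, beside 2.52% of all genes, and none higher, with a median of 0.02. In the vestibule 21 were tested and none was called (limma), with a median of -0.13; with the block 2 were called lower and 1 higher, beside 12.8% and 10.5% of all genes.

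Elfn2, the closest relative of Elfn1, was called lower in the cochlea. It went from 10.1 ± 2.82 CPM (SD, n = 3) in heterozygotes to 1.32 ± 0.468 CPM (SD, n = 3) in mutants, a change of -2.25 (SE 0.27). In the vestibule its difference was -0.43 (SE 0.24; limma, Benjamini-Hochberg adjusted p = 0.445). Clec18a, a CAP domain protein with a lectin domain, was the other relative called lower in the cochlea, by -1.37 (SE 0.23), and stood at 136 and 162 CPM in the vestibular groups, a difference of 0.23 (SE 0.15).

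Pkn2, a kinase related to Pkn3, had a difference of -0.03 (SE 0.12) in the cochlea and of -0.11 (SE 0.23) in the vestibule. None of 6 chondroitin and dermatan sulfotransferases was called in either organ, with cochlear means in heterozygotes and mutants of 154 and 142 CPM for Chst15 and of 49.9 and 51.0 CPM for Chst11. With the block Chst7 was lower in the vestibule (-0.62, SE 0.20; limma, Benjamini-Hochberg adjusted p = 0.0419), as was the CAP domain gene Crispld1 (-0.93, SE 0.25; 0.0164).

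None of the other genes of riboflavin handling was called lower in the cochlea. Rfk, the kinase that makes the flavin cofactor FMN, differed by 0.50 in the cochlea (SE 0.14; limma, Benjamini-Hochberg adjusted p = 0.0610) and by 0.45 in the vestibule (SE 0.14; 0.148). With the block Rfk was called higher in both organs (limma, Benjamini-Hochberg adjusted p = 0.00822 and 0.00352), when 4.21% of cochlear genes were called higher. Flad1, which makes FAD from FMN, differed by 0.05 and -0.06, and Slc52a2, the other riboflavin transporter of mice, by 0.29 (SE 0.38) and 0.17 (SE 0.27). Among methionine sulfoxide reductases, Msra differed by -0.44 and Msrb2 by 0.34 in the cochlea, and neither was called in either organ. Msrb1 was not analysed here.

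**Figure D4:**
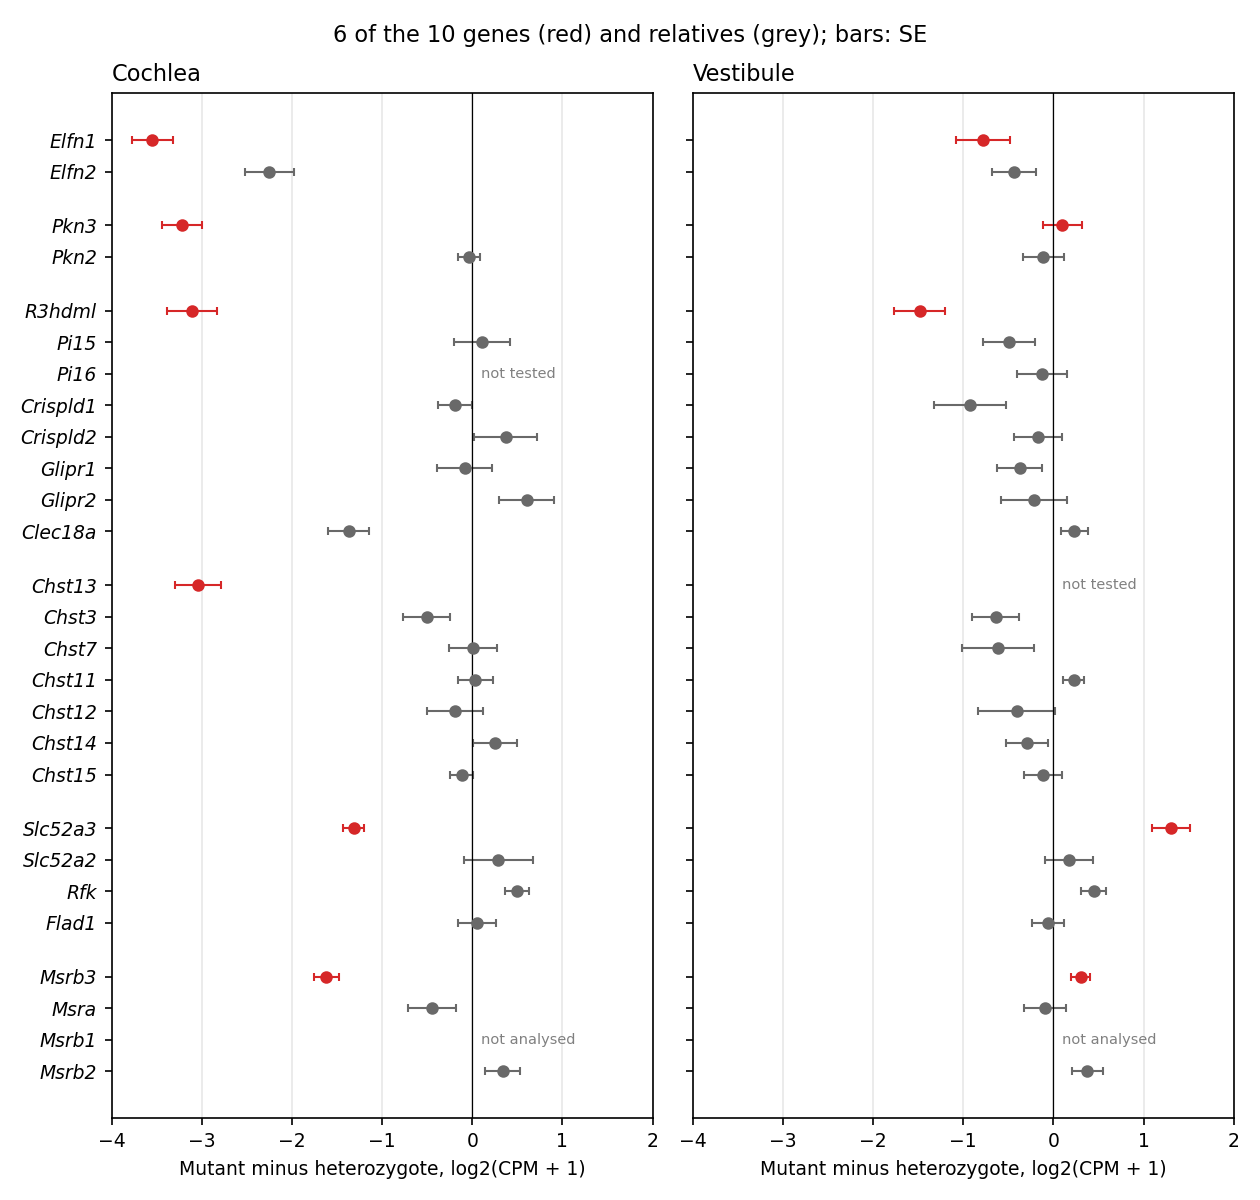
Mutant minus heterozygote difference on the log2(CPM + 1) scale, with SE bars, for Elfn1, Pkn3, R3hdml, Chst13, Slc52a3 and Msrb3 (red) and relatives reported here (grey), in the cochlea (left) and the vestibule (right). Elfn2, at -2.25, and Clec18a, at -1.37, are the relatives called lower in the cochlea.

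For each of the 9 genes tested in both organs, the gene with the closest profile over the 12 libraries, centred within each organ, was looked up. These correlations rest largely on the genotype difference in the cochlea that the libraries share, and are given as a description. For Slc52a3, which changed by a similar amount in both organs, they rest on the vestibular difference as well. Clrn2, a clarin of the hair bundle, lay closest to Erich5 (Pearson r = 0.968 over 12 libraries), and Grxcr1, a regulator of stereocilia, to Veph1 (0.982). Cfap206 lay closest to Pkn3 (0.991) and Drc7 to Ofcc1 (0.994), both genes of the axoneme of motile cilia. Lrrc10b lay closest to Elfn1 (0.990), Lrba, a vesicle trafficking protein, to Ankfn1 (0.981), and the epithelial cadherin Cdh1 to R3hdml (0.983). Pearson r takes no account of the size of a change. Each nearest gene had a smaller cochlear difference than the gene it lay closest to, such as -0.61 for Lrba against -2.03 for Ankfn1.

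S100a1, a calcium-binding protein listed here among the supporting cell markers, lay closest to Msrb3 (r = 0.988). Wwc1, a scaffold protein of Hippo signalling, lay closest to Slc52a3 (r = 0.971). The vestibular libraries took part in choosing the nearest genes, so the vestibular values of these genes are a description with no test. Wwc1 differed by 0.62 (SE 0.13) in the vestibule and by -0.56 in the cochlea. Cfap206 and Drc7 changed by -2.46 and -1.66 in the cochlea and differed by -0.18 and 0.05 in the vestibule.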

How the data were processed

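Ribosome-bound RNA was measured in 12 libraries, 3 per genotype and organ. The deposited tables hold CPM, reads scaled by the authors to the library total, as the values show. The submitters' processing notes name TopHat and GRCm38; no source used here gives the counting tool, its annotation or its strand setting. All values (100%) were whole multiples of 1 read to within 0.001 of a read, so whole reads were recovered.

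Within each organ, genes that reached 1 CPM in 3 or more of 6 libraries were compared by limma 3.58.1 (trend, R 4.3.3) on log2(CPM + 1), Benjamini-Hochberg adjusted over all tested genes and called under 0.05. edgeR 4.0.16 and DESeq2 1.42.0 on the recovered reads, other pseudocounts (0.25 and 4), filters and scalings, left-out libraries and a replicate block were alternatives. Same-numbered libraries deviated together (r = 0.226, 0.226 and 0.420 in the cochlea, 0.766, 0.508 and 0.599 in the vestibule). Vestibular heterozygote 2 also went with mutant 3 (r = 0.318) and heterozygote 3 with mutant 2 (0.220). The other different-numbered vestibular libraries had r of -0.477 to -0.640, and those of the cochlea -0.240 to 0.0127. The labels do not state what a number marks, so the pairing was inferred from these same values. The fit was tested on simulated data with the same dispersion for every gene and no replicate effect. That test therefore does not show how the fit behaves under the replicate differences of these libraries. Motifs were searched in RefSeq promoters; positions and exon lengths came from GENCODE M21. Figures used matplotlib 3.10.9.

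The members, relatives and marker lists were chosen with earlier results of these data known. Named genes were the members, Gfi1, the relatives, and the gene with the nearest profile to each tested member among 13417 genes tested in both organs, without predicted genes and Rik clones; the markers Cdh23, Pou4f3 and Pcdh15 and the gene Tmem91 were named after their values were seen. The values of 1 relative, which the counts over relatives include, are not reported here.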

Additional observations from a re-analysis of the deposited data

Results flagged for a closer look

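In 3 of the 10 genes every mutant library lay below every heterozygote in the cochlea and above every heterozygote in the vestibule. The choice of the genes had fixed the cochlear side, and 10.7% of all genes tested in the vestibule had every mutant higher. The 3 genes were Veph1, with a vestibular difference of 0.51 on the log2(CPM + 1) scale, Slc52a3, with 1.30, and Msrb3, with 0.30. The difference between the organs was not tested, because the cochlear falls had chosen the genes.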

How the results depend on the processing

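With the replicate block, which beside the calls given here and for Rfk, Chst7 and Crispld1 changed no other call of the 10 genes and their relatives, 3 of the 10 genes were called lower and 3 higher in the vestibule, with 3634 genes called in all (546 without it). It called 1532 genes in the cochlea (794 without it) and 183 lower in both organs (43 without it). Without a filter on low values no gene of the 10 was called lower, with 358 genes called, and a 5 CPM filter, which left R3hdml out of the test, also gave 0. DESeq2 called 3 higher, with 1234 genes called and 75 lower in both organs. Leaving out 1 vestibular library gave 0 to 0 of the 10 called lower, 0 to 1 higher, 226 to 522 genes called and 18 to 49 lower in both organs. Without both vestibular replicate 1 libraries 863 genes were called, 72 lower in both organs. Without both replicate 2 or both replicate 3 libraries 31 and 49 genes were called, 4 and 7 lower in both organs, with 0 of the 10 called either way. Without both cochlear replicate 1 or 2 libraries 366 and 379 genes were called in the cochlea, and 28 were lower in both organs without the former. The vestibular difference changed sign when 1 library was left out for Pkn3 (-0.048 to 0.25), Ofcc1 (-0.090 to 0.084) and Ankfn1 (-0.28 to 0.34). It also did so for Pkn3 without both replicate 2 libraries (-0.081), for Ofcc1 with quantile normalization (-0.0044) or without both replicate 1 libraries (-0.11), and for Ankfn1 without the latter (-0.069). The cause of these changes was not tested. The other 6 genes tested in the vestibule, and all 10 in the cochlea, kept their direction in every fit run.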
